A study of Mus musculus with 16 samples.

Results

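The 10 genes described here belong to 2 enzyme families that lengthen and desaturate fatty acids. These are the elongases Elovl1, Elovl2, Elovl4, Elovl5, Elovl6 and Elovl7, and the Fads family desaturases Fads1, Fads2, Fads3 and Fads6. They were chosen by name, and all 10 were found among the 55335 genes of the deposited count table. All 10 were also among the 16475 genes with enough reads to be tested. Whole-hippocampus mRNA was sequenced from 16 female mice aged 10 months, 4 in each of 4 groups. WT mice were a C57BL/6J x 129S1 cross, and 3xTg mice carried Tg(APPSwe,tauP301L)1Lfa on a B6;129 background. In 3xTg mice the human APP and tau transgenes are driven by the Thy1.2 element, which is active in neurons. Every mouse received a 28-day infusion into the cerebral ventricles. WT-D and 3xTg-D mice received the vehicle, which held 0.8% DMSO. WT-S and 3xTg-S mice received 80 µM of CAY10566, an inhibitor of stearoyl-CoA desaturase (SCD), in the same vehicle. The protocol field of the labels mentions a different SCD inhibitor, ab142089, and the compound is given here as in the treatment field and the titles.

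Elongases add carbon units from malonyl-CoA to a fatty acid, in a cycle shared with a reductase, a dehydratase and a second reductase of the endoplasmic reticulum. Desaturases place double bonds in the chain with electrons passed on by cytochrome b5. Elovl6 lengthens palmitate to stearate, the substrate that SCD turns into oleate. Fads2 and Fads1 act in turn, with Elovl5 and Elovl2, to make arachidonic acid and docosahexaenoic acid (DHA) from dietary precursors, and brain membranes are rich in both products. Elovl4, Elovl1 and Elovl7 make longer chains, which are found in sphingolipids among other lipids. Fads3 acts on sphingoid bases, and Fads6 is classed as a desaturase by its sequence.

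Reads assigned to genes numbered 15413385 to 23590149 in each mouse, and 7.82% to 15.1% of a mouse's reads lay outside annotated genes. Neuronal markers (6 genes, 5094 to 6431 summed counts relative to library size, CPM) and hippocampal markers (5 genes, 681.5 to 1037 summed CPM) were detected in every mouse. Choroid plexus markers stood apart in WT-D mouse 4 (720.5 summed CPM) and WT-S mouse 1 (286.4 summed CPM), against at most 59.99 summed CPM elsewhere, and 3xTg-D mouse 2 had the lowest neuronal and hippocampal and the highest astrocyte (3031 summed CPM) and microglial (664.3 summed CPM) sums. Of 11 marker lists, mature oligodendrocytes and hippocampal identity did not overlap between 3xTg-D and WT-D mice, ependymal cells did not overlap between 3xTg-S mice and each other group, and 0 separated WT-S from WT-D mice. In whole tissue, fewer cells of a type and less RNA per cell cannot be told apart.

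The 10 genes spanned a wide range of levels. In reads relative to library size and merged exon length (RPKM), the means over the 16 mice were 52.5 for Fads2, 50.5 for Fads1, 27.2 for Elovl4 and 25.7 for Elovl5. Elovl6 followed at 11.8 RPKM. The means of Elovl2 and Fads3 were 6.14 and 6.05 RPKM, and the lowest were Fads6 at 3.71, Elovl7 at 3.64 and Elovl1 at 3.25 RPKM. Among the 16475 tested genes Fads2 stood at the 96.0th percentile and Elovl1 at the 45.4th. The ranges over mice overlapped within the pairs Fads2 and Fads1, Elovl4 and Elovl5, Elovl2 and Fads3, Fads6 and Elovl7, and Elovl7 and Elovl1, so the order within these pairs is not resolved. Dividing by the longest transcript in place of all exons exchanged Fads2 with Fads1, Elovl4 with Elovl5 and Elovl7 with Elovl1.

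**Figure D1:**
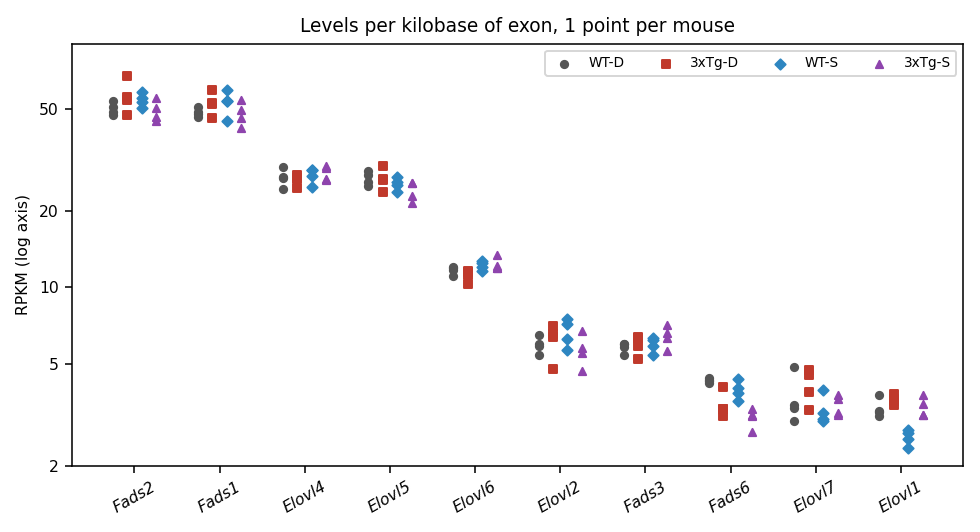
Level of each gene (RPKM, log axis) in each of the 16 mice, with genes ordered by their mean and 1 point per mouse, coloured by group. Fads2 and Fads1 lie above all other members in every mouse, and Fads6, Elovl7 and Elovl1 lie at 2.36 to 4.90 RPKM.

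Fads3, Fads2 and Fads1 sit side by side on chromosome 19 (GRCm38): Fads3 at chr19:10041569-10060110 on the plus strand, Fads2 at chr19:10062765-10101746 on the minus strand and Fads1 at chr19:10182888-10196877 on the plus strand. Fads3 and Fads2 are 2655 bases apart, and Fads2 and Fads1 are 81142 bases apart. Fads6 lies alone at chr11:115279622-115297663 on the minus strand, and Elovl1 at chr4:118428093-118432953 on the plus strand. Elovl2 and Elovl7 share chromosome 13, and Elovl4 and Elovl5 share chromosome 9. In exons, Elovl1 overlapped Cdc20 of the other strand over 53 bases and Elovl6 overlapped Gm35986 over 34 bases. Reads there cannot be assigned to a strand here, since the strand setting of the counting is not given in the sources used here.

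Fads6 and Elovl1 were the members called changed between groups, so the windows around their start sites are shown (RefSeq, GRCm38.p6, 250 bases before to 50 bases after the annotated start, 5′ to 3′ on the gene's strand). Capitals mark matches on either strand to the motifs searched. These were the CCAAT box (letters CCAAT), the E-box (letters CACGTG), the TATA box (letters TATAAA), the GC box (letters GGGCGG) and a motif like the sterol response element (letters TCACNCCAC). The first window is chr11:115297513-115297812 on the minus strand, and the second, at the upstream of 2 Elovl1 starts, is chr4:118427843-118428142 on the plus strand, where the CCAAT box shares letters with a GC box on the other strand.
Fads6: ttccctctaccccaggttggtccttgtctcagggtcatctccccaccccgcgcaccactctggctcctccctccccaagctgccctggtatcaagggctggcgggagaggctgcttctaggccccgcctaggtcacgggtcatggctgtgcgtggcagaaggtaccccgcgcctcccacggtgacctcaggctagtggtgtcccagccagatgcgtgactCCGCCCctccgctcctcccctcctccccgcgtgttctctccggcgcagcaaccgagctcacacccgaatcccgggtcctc
Elovl1: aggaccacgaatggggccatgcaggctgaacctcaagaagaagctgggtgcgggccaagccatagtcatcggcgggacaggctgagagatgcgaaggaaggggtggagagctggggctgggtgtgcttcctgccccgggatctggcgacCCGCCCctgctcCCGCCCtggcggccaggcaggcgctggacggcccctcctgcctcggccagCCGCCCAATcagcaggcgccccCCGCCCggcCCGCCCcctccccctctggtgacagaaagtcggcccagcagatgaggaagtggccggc
The table of start sites held 11 windows for 9 of the 10 members, and Fads1 was the member with none. The GC box was found in 8 of the 11 windows and in 35.7% of 32851 windows of all genes. The CCAAT box was found in 4 of 11 against 37.4%, the E-box in 2 of 11 against 7.15%, the TATA box in 0 of 11 against 13.6%, and the sterol response element-like motif in 0 of 11 against 1.24%. The matches describe letters and say nothing of binding.

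Fads6 was lower in 3xTg than in WT hippocampi under both infusions. In WT-D mice its level was 29.0, 28.1, 29.4 and 28.5 CPM, and in 3xTg-D mice 27.0, 20.9, 22.3 and 22.2 CPM. In WT-S mice it was 26.8, 29.2, 25.6 and 23.8 CPM, and in 3xTg-S mice 20.99, 22.2, 18.1 and 20.95 CPM. Each 3xTg-D mouse lay below each WT-D mouse, each 3xTg-S mouse lay below each WT mouse of either group, and the 3xTg-S and 3xTg-D ranges overlapped. The share of all tested genes whose groups separate in this way was not counted, so the separation alone carries little weight.

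A gene was called changed at an unadjusted p of 0.01 or less in edgeR's quasi-likelihood test (two-sided), the threshold of the study, and p-values adjusted by Benjamini-Hochberg over all tested genes stand beside it. In 3xTg-D against WT-D mice, 1 of the 10 members was called, against 4.91% of all tested genes. This was Fads6, which fell by 0.32 on the log2 scale (SE 0.08, adjusted p = 0.0808), a fall of 19.7%. At an adjusted p of 0.05 or less, 0 of 10 members and 1.85% of all genes were called, and 1 member, Fads6, had an unadjusted p under 0.05. DESeq2's likelihood ratio test gave Fads6 an adjusted p of 0.0245, and over all alternatives, mice left out included, the adjusted p ranged from 0.0143 to 0.235. Beside this difference, the mature oligodendrocyte sum (6 markers, 3590 to 3936 in 3xTg-D and 2839 to 3334 summed CPM in WT-D mice) was higher and the hippocampal sum (5 markers, 681.5 to 887.7 and 890.8 to 947.7 summed CPM) lower in 3xTg-D mice, with no marker at 0 in either group. The hippocampal list holds C1ql2, which by itself fell by 1.01 (adjusted p = 0.00232), from a mean of 39.74 to 19.67 CPM. C1ql2 was also lower in 3xTg-S (mean 16.15 CPM) than in WT-S mice (38.52 CPM), where the hippocampal sums overlapped. The part of these marker sums in the Fads6 difference was not tested.

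In 3xTg-S against WT-S mice, 2 of 10 members were called, against 4.26% of all genes (1.40% at an adjusted p of 0.05 or less, with 0 members). Fads6 fell by 0.37 (SE 0.10, adjusted p = 0.122), or 22.7%. Without 3xTg-S mouse 3, the mouse with the lowest Fads6, the difference was -0.32 and no longer passed. Over all alternatives, mice left out included, the adjusted p ranged from 0.0354 to 0.321. In 3xTg-S against WT-D mice, 1 of 10 members was called, against 5.69% of all genes, and this was again Fads6. There it fell by 0.50 (SE 0.07, adjusted p = 0.00737), or 29.3%, and it was also the 1 member past the adjusted threshold, which 1.58% of all genes passed. These comparisons share mice. Ependymal markers (3 genes) summed to 5.94 to 7.73 CPM in 3xTg-S mice, against 12.5 to 16.2 in WT-D and 10.0 to 15.5 in WT-S mice, and their part in the difference was not tested.

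Averaged over both infusions, in a fit to all 16 mice, 2 of 10 members were called for genotype, against 7.93% of all genes, and both had an adjusted p of 0.05 or less, against 4.97% of all genes. Fads6 fell by 0.34 (SE 0.06, 95% interval -0.47 to -0.21, adjusted p = 0.00224). Leaving out any 1 of the 16 mice kept the call, with the difference between -0.39 and -0.32. Fads6 was not called for CAY10566. The difference was -0.12 in WT-S against WT-D mice (95% interval -0.28 to 0.04), -0.17 in 3xTg-S against 3xTg-D mice (95% interval -0.39 to 0.05) and -0.15 averaged over genotypes (95% interval -0.27 to -0.02, adjusted p = 0.999). The genotype by treatment interaction of Fads6 was -0.04 (95% interval -0.30 to 0.22).

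**Figure D2:**
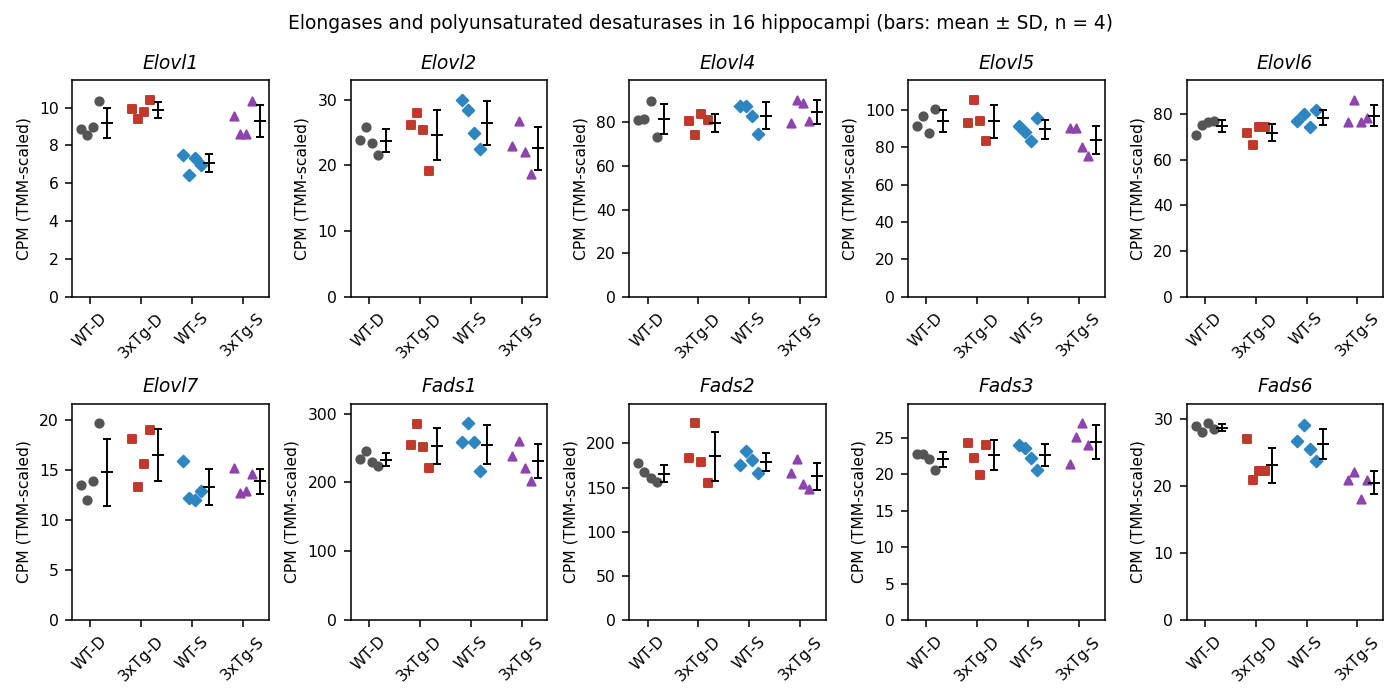
Level of each of the 10 genes (CPM scaled by TMM, axes from 0) in each mouse of the 4 groups, with the mean and SD of each group (n = 4) as bars. Fads6 lies at 28.1 to 29.4 CPM in WT-D and at 18.1 to 22.2 CPM in 3xTg-S mice, and Elovl1 lies at 6.43 to 7.51 CPM in WT-S mice, below every other mouse.

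Elovl1, which makes saturated and monounsaturated chains for sphingolipids, was lowest in WT mice given CAY10566. In WT-D mice its level was 8.87, 8.55, 8.96 and 10.4 CPM, and in WT-S mice 7.51, 6.43, 7.34 and 6.95 CPM. In 3xTg-D mice it was 9.95, 9.40, 9.77 and 10.4 CPM, and in 3xTg-S mice 9.55, 8.63, 8.61 and 10.4 CPM. The 4 WT-S mice lay below the other 12 mice, and the other groups overlapped each other. For this separation too, the share of all tested genes was not counted, and alone it carries little weight. It was also the member with the fewest reads, 124 to 224 per mouse, which limits the precision of these values.

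In WT-S against WT-D mice, 1 of 10 members was called, against 0.188% of all genes (31 genes). That share of all genes is below what a p of 0.01 passes where no gene differs. At an adjusted p of 0.05 or less, 0 members and 0 of all tested genes were called. Elovl1 fell by 0.38 (SE 0.11, adjusted p = 1), a fall of 23%. Deviations of same-numbered mice correlated at 0.114 to 0.34 between these groups. With the number as a block the call stayed, against 0.698% of all genes called (115 genes). The call was lost without WT-D mouse 3 (difference -0.39), WT-D mouse 4 (-0.31), WT-S mouse 2 (-0.34) or WT-S mouse 4 (-0.37). WT-D mouse 4, which had the highest choroid plexus sum, also had the highest Elovl1 of its group. Without WT-S mouse 1, the other mouse of high choroid plexus markers, the call stayed (-0.41). Without WT-S mouse 4 the count of all genes called rose to 518, and the member called was Fads1 (0.20) in place of Elovl1. No marker list separated these groups, and the share of reads outside genes was 10.5% to 12.5% in WT-D and 8.55% to 13.1% in WT-S mice. With that share as a covariate the difference was -0.35 and the call stayed. The part of choroid plexus or other marker sums in the Elovl1 difference was not tested.

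Elovl1 was higher in 3xTg-S than in WT-S mice by 0.38 (SE 0.11, adjusted p = 0.169), or 30.3%. This call was lost without any of WT-S mice 2, 3 and 4 or 3xTg-S mice 1 and 4 (0.32 to 0.40) and without the filter on low counts. Between 3xTg-D and WT-D mice the difference was 0.11 (95% interval -0.10 to 0.31). The genotype average was 0.25 (SE 0.07, adjusted p = 0.0352). It stayed called at p of 0.01 or less without any 1 mouse, but its adjusted p was above 0.05 in 12 of 16 fits with a mouse left out and in 2 of 6 other settings (no filter on low counts, and at least 10 counts in every mouse). Over all of these the adjusted p ranged from 0.0167 to 0.154. In 3xTg mice CAY10566 gave a difference of -0.09 (95% interval -0.31 to 0.13), and the difference between the treatment effects of the genotypes was 0.29 (SE 0.13, adjusted p = 0.788), which did not pass the threshold. In the treatment average 1 of 10 members was called, against 0.880% of all genes, and this was Elovl1, which fell by 0.23 (SE 0.07, adjusted p = 0.999).

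**Figure D3:**
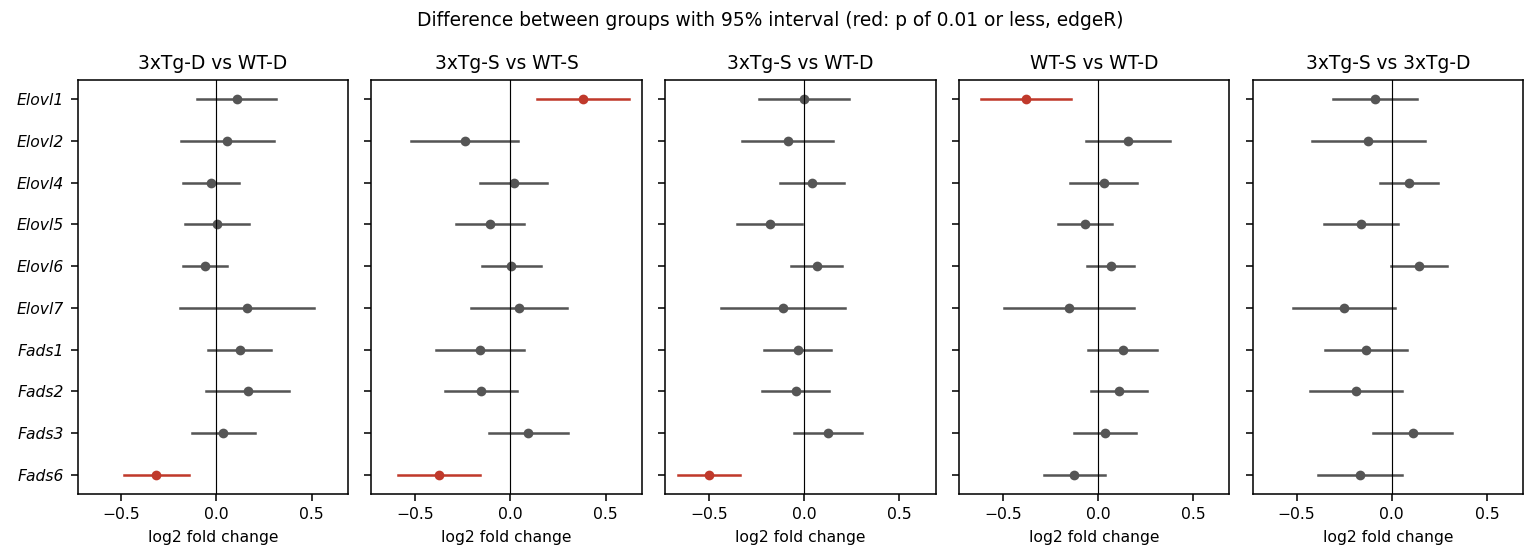
Log2 fold change of each gene with its 95% interval in the 5 pairwise comparisons, red where p was 0.01 or less in edgeR's test. Fads6 lies below 0 in the 3 comparisons of 3xTg with WT mice, and Elovl1 lies above 0 in 3xTg-S against WT-S and below 0 in WT-S against WT-D mice.

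Elovl6, the elongase next to SCD in the pathway, had 76.3 to 86.2 CPM in 3xTg-S mice, above the 66.6 to 74.5 CPM of 3xTg-D mice. These ranges did not overlap, and the difference of 0.14 (95% interval -0.00 to 0.29, adjusted p = 0.722) did not pass the test. How many of all tested genes separated in this way was not counted, so the separation alone carries little weight. In WT-D and WT-S mice Elovl6 had 71.0 to 77.1 and 74.35 to 81.99 CPM, which overlapped, and the difference was 0.07 (95% interval -0.06 to 0.19). Averaged over genotypes the difference was 0.10 (95% interval 0.02 to 0.19, adjusted p = 0.999). In 3xTg-S against 3xTg-D mice 0 of 10 members were called by edgeR, against 0.904% of all genes. In that comparison 0 had an unadjusted p under 0.05, and DESeq2 also called 0. Under other settings 0 were called too, while 5 had an unadjusted p under 0.05 with a replicate block, 2 without a filter on low counts, 2 with the share of reads outside genes as a covariate and 1 with all 16 mice in one fit.

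Elovl7, which acts on saturated chains, varied from mouse to mouse. The 3xTg-D mice had 18.1, 13.3, 15.6 and 18.97 CPM and the WT-D mice 13.5, 12.01, 13.9 and 19.7 CPM, the highest again in WT-D mouse 4. The 3xTg-S mice had 15.2, 12.7, 12.9 and 14.6 CPM and the WT-S mice 15.9, 12.2, 12.01 and 12.9 CPM. The groups overlapped in each comparison. Its genotype average was 0.11 (SE 0.10, adjusted p = 0.73) and its difference in 3xTg-S against 3xTg-D mice was -0.25 (95% interval -0.52 to 0.02), which passed the threshold without 3xTg-D mouse 2 (-0.36). With the share of reads outside genes as a covariate, the difference between 3xTg-D and WT-D mice was 0.41 and was called, against 0.16 (95% interval -0.19 to 0.51) and no call without it. Leaving out WT-D mouse 4 gave 0.32, also without a call.

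Elovl5 and Elovl2 lengthen polyunsaturated chains, and Elovl4 makes the longest chains of the family. Elovl5 ranged from 75.4 to 105.3 CPM over the mice, Elovl2 from 18.7 to 29.96 CPM and Elovl4 from 73.4 to 90.3 CPM. None of the 3 was called in any of the 8 comparisons. The difference nearest to the threshold was -0.18 for Elovl5 in 3xTg-S against WT-D mice (95% interval -0.35 to -0.01, adjusted p = 0.343). For Elovl2 it was -0.24 in 3xTg-S against WT-S mice (95% interval -0.52 to 0.04). In the genotype average the 95% interval of Elovl4 ran from -0.11 to 0.11.

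Fads1 and Fads2, the desaturases of the arachidonic acid and DHA pathway, were the most abundant members and were not called in any of the 8 comparisons. The vehicle groups had 221.6 to 285.4 CPM (3xTg-D) and 223.8 to 245.5 CPM (WT-D) of Fads1, and the inhibitor groups 202.7 to 260.3 CPM (3xTg-S) and 216.9 to 285.9 CPM (WT-S). For Fads2 the vehicle groups had 155.6 to 222.6 CPM (3xTg-D) and 156.5 to 177.7 CPM (WT-D), and the inhibitor groups 147.8 to 182.6 CPM (3xTg-S) and 166.6 to 191.5 CPM (WT-S). All these ranges overlapped, and WT-D mice varied least. For genotype, the 95% interval of the averaged difference was -0.15 to 0.13 for Fads1 and -0.13 to 0.15 for Fads2. For treatment it was -0.14 to 0.13 and -0.18 to 0.10.

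The sign of the treatment difference was not the same in the 2 genotypes. For Fads2 the difference was 0.11 in WT-S against WT-D mice (95% interval -0.03 to 0.26) and -0.19 in 3xTg-S against 3xTg-D mice (95% interval -0.43 to 0.05). The interaction was -0.30 for Fads2 (95% interval -0.58 to -0.02, adjusted p = 0.788) and -0.26 for Fads1 (95% interval -0.54 to 0.01, adjusted p = 0.788). In the interaction 0 of 10 members were called by edgeR, against 0.595% of all genes, 2 members (Fads2 and Elovl1) had an unadjusted p under 0.05, and DESeq2 called 0. With the replicate number as a block, Fads1 (-0.26) and Fads2 (-0.29) were called, against 3.79% of all genes. Deviations of same-numbered mice correlated at a mean of 0.217 between WT-D and WT-S mice. Between the other groups the mean ran from 0.0414 (WT-D with 3xTg-D) to 0.241 (WT-S with 3xTg-S). Without 3xTg-D mouse 4 the interaction of Fads2 was -0.38 and was called, and without 3xTg-D mouse 2, which had the highest Fads2 of all mice, it was -0.21 and was not. 3xTg-D mouse 2 also had the highest astrocyte and microglial and the lowest neuronal marker sums, and their part was not tested. The share of reads outside genes differed between these mice. It was lowest in 3xTg-S mouse 2 (7.82%), WT-S mouse 2 (8.55%) and 3xTg-D mouse 2 (8.79%), which had the highest Fads1 of their groups at 260.3, 285.9 and 285.4 CPM. It was highest in 3xTg-S mouse 4 (15.1%) and WT-S mouse 4 (13.1%), which had the lowest Fads1 of their groups at 202.7 and 216.9 CPM. Within the WT-D and within the WT-S mice, a higher share went with less Fads1 throughout. In WT-D mice this ran from mouse 2 (10.5%, 245.5 CPM) to mouse 4 (12.5%, 223.8 CPM). Among 3xTg mice the order was not kept throughout. There 3xTg-D mouse 1 had the highest share of its group (11.3%) and its next to highest Fads1 (254.8 CPM). Likewise 3xTg-S mouse 1 had a higher share (12.8%) and more Fads1 (238.8 CPM) than 3xTg-S mouse 3 (12.01%, 220.9 CPM). With the share as a covariate the interaction was -0.17 for Fads2 and -0.11 for Fads1, with 0 members called and 0 at an unadjusted p under 0.05. The cause of these differences was not tested.

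The level of Fads3 was 24.4 ± 2.31 CPM (SD, n = 4) in 3xTg-S, 22.6 ± 1.54 CPM in WT-S, 22.6 ± 2.03 CPM among the 3xTg-D and 22.1 ± 1.02 CPM among the WT-D mice. It was not called in any of the 8 comparisons, and the difference nearest to the threshold was 0.13 in 3xTg-S against WT-D mice (95% interval -0.05 to 0.30).

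The members differed in how they varied from mouse to mouse within groups. Over the deviations of 16 mice from their group means, in log2 CPM, Pearson's r was 0.898 between Fads1 and Elovl2, 0.883 between Fads1 and Fads2 and 0.808 between Elovl2 and Fads2. Elovl1 and Elovl7 had an r of 0.797 with each other and of -0.553 and -0.457 with Fads1. Fads3 had an r of 0.148 with Fads1 and 0.0116 with Fads2. These values share libraries, and the share of reads outside genes differed between them, so they describe the mice and are given without a test. The tested genes whose deviations were most like those of Fads1 were Mid1ip1 (r = 0.974), Sdhb (0.974) and Tspan3 (0.973), and for Fads2 they were Gm2a (0.980), Axl (0.966) and Gnai2 (0.957). Those of Elovl2 were Prpf38a (0.943), Qpct (0.934) and Etfa (0.930). For Elovl7 they were Epn3 (0.919), Plekhh1 (0.900) and Ppfibp2 (0.878), for Elovl1 Ovca2 (0.884), Gm33195 (0.877) and 2810428J06Rik (0.866), and for Fads6 Mrps18b (0.872), Arsg (0.865) and Galnt6 (0.864). The nearest gene to Elovl5 was Arf4 (0.900), to Elovl6 Hnrnpul2 (0.897), to Elovl4 Gm43032 (0.865) and to Fads3 Gm10093 (0.836).

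The enzymes and regulators around the 10 genes were examined in 7 lists of 56 genes, of which 51 were tested. In the genotype average 4 of the 51 were higher and 5 lower at p of 0.01 or less, against 7.93% of all tested genes, and 4 of these had an adjusted p of 0.05 or less, against 4.97%. Among the other desaturases and elongases (8 genes, 6 tested), 0 were higher and 2 lower. Scd1, which makes oleate, fell by 0.25 (adjusted p = 0.0672). Its level was 147.7 ± 20.1 CPM in 3xTg-S against 184.4 ± 25.1 CPM in WT-S mice, and 157.9 ± 13.3 CPM in 3xTg-D against 180.0 ± 16.2 CPM in WT-D mice (SD, n = 4). Scd2, the main SCD gene of the brain, had a genotype average of -0.01 (adjusted p = 0.949). Its level was 1342 ± 119.7 CPM in 3xTg-S against 1421 ± 102.1 CPM in WT-S mice, and 1458 ± 67.2 CPM in 3xTg-D against 1406 ± 51.9 CPM in WT-D mice. The list's other call was 4833423E24Rik, an older name of Fads2b, which fell by 1.72 (adjusted p = 0.00867). It had 8 to 21 reads in WT-D and 7 to 24 in WT-S mice, against 3 to 10 in 3xTg-D and 1 to 4 in 3xTg-S mice. That it passed the filter (minimum count 10) rested on the WT mice, where it was high, so its call carries no weight. The counts of calls here and in the pairwise comparisons include it.

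In the genotype average, edgeR called 0 of 6 tested partners of the elongation cycle, and 0 had an unadjusted p under 0.05. Of 5 tested genes of electron supply, 1 was called: Cyb5a, the cytochrome b5 of the endoplasmic reticulum, fell by 0.25 (adjusted p = 0.0552). Of 4 genes of malonyl-CoA supply, Acaca, which makes malonyl-CoA, rose by 0.21 (adjusted p = 0.0747), and of 7 tested peroxisomal genes Abcd3, a fatty acyl-CoA transporter, rose by 0.16 (adjusted p = 0.0377). Of 12 genes of uptake, activation and membrane insertion, 2 fell: the phospholipase gene Pla2g6 by 0.27 (adjusted p = 0.00786) and the acyltransferase gene Mboat7 by 0.17 (adjusted p = 0.0747). Of 11 transcriptional regulators, 2 rose: the sterol regulator Srebf2 by 0.18 (adjusted p = 0.0209) and Rxra, a nuclear receptor partner, by 0.22 (adjusted p = 0.0563). With the replicate number as a block, Hacd2, Cyb5r4, Scp2, Fabp5, Fabp7, Srebf1 and Insig1 were called as well, against 10.5% of all genes. The medians of the lists lay between -0.24 for the other desaturases and elongases and 0.05 for the transcriptional regulators, that of the 10 members at -0.01 and that of all tested genes at 0.01.

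Pairwise, in 3xTg-D against WT-D mice 3 of 51 genes were higher (Abcd3, Srebf2 and Insig2) and 1 lower (Pla2g6), against 4.91% of all tested genes called. In 3xTg-S against WT-S mice 1 was higher (Acaca) and 2 lower (4833423E24Rik and Nr1h3), against 4.26%. In 3xTg-S against WT-D mice, which differ in both genotype and infusion, 2 were higher (Lclat1 and Rxra) and 4 lower (4833423E24Rik, Cyb5a, Pla2g4a and Srebf1), against 5.69%. Srebf1, which drives transcription of desaturase genes, fell there by 0.37 (adjusted p = 0.0392). With the replicate number as a block, Scd1 was also called lower in each of these comparisons. In 3xTg-S against WT-S mice the block added Cyb5a, Fabp5, Fabp7 and Srebf1 and lost Nr1h3. In 3xTg-S against WT-D mice it added Acaca and lost Lclat1. Of all tested genes, 5.73% (3xTg-D against WT-D), 8.13% (3xTg-S against WT-S) and 6.53% (3xTg-S against WT-D) were then called.

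For CAY10566, edgeR called 0 of the 51 genes in WT-S against WT-D mice, in 3xTg-S against 3xTg-D mice and in the interaction, where 1, 4 and 1 of them had an unadjusted p under 0.05, and called 1 in the treatment average. Of all tested genes 0.188%, 0.904%, 0.595% and 0.880% were called in these comparisons. The gene was Pla2g4a, which releases arachidonic acid from membranes and fell by 0.43 (adjusted p = 0.999). With the replicate number as a block, Pla2g4a and Srebf1 were called lower in 3xTg-S against 3xTg-D mice, against 6.88% of all genes. The block called Hsd17b4 lower in the interaction, against 3.79%. It added Srebf1 (lower) and Lclat1 (higher) in the treatment average, against 1.77%, and in WT-S against WT-D mice the count stayed at 0, against 0.698%. Scd1 differed by 0.04 (95% interval -0.19 to 0.26) in WT-S against WT-D and by -0.10 (95% interval -0.32 to 0.13) in 3xTg-S against 3xTg-D mice. For the 10 members the median absolute difference of the treatment average was 0.09, against 0.06 for all tested genes. It was also larger in WT-S against WT-D, 3xTg-S against 3xTg-D and 3xTg-S against WT-S mice. It was smaller in the genotype average (0.06 against 0.08) and in the interaction (0.09 against 0.15). The same held in 3xTg-D against WT-D and in 3xTg-S against WT-D mice, and these medians were not tested.

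**Figure D4:**
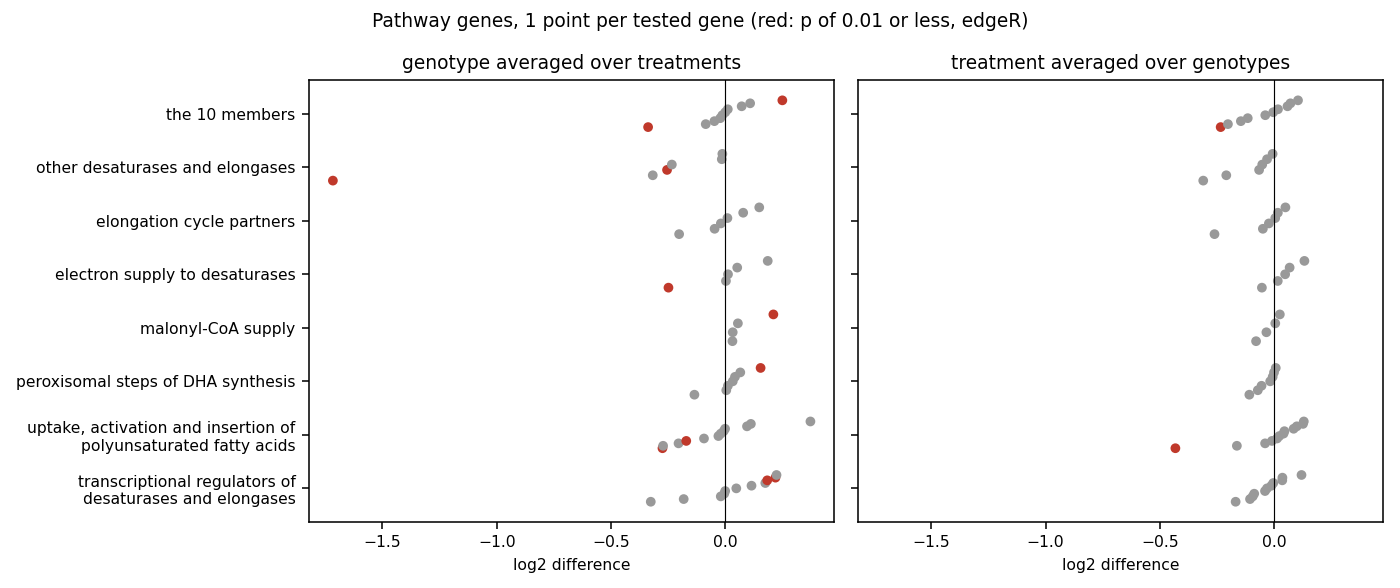
Log2 difference of each tested gene of the 7 lists and of the 10 members for genotype averaged over treatments (left) and treatment averaged over genotypes (right), red where p was 0.01 or less in edgeR's test. For genotype 9 list genes and 2 members are red, and for treatment 1 list gene and 1 member are red.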

How the data were processed

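The authors trimmed single-end reads with Trimmomatic 0.35, aligned them to GRCm38 with STAR 2.5.1b, using the Gencode M23 annotation, and deposited raw counts per gene. Strand setting and use of molecular identifiers in counting are not given in the sources used here. Gene positions came from the deposited count table. Strands, exon lengths and exon overlaps came from Gencode M21 on the same build, and start site windows from RefSeq. Counts were filtered with filterByExpr over the 4 groups (minimum count 10, minimum total 15) and normalized by TMM in edgeR 4.0.16 (R 4.3.3). Groups were compared by edgeR's quasi-likelihood test, pairwise or in a fit to all 16 mice for the averages and the interaction. The difference itself was log2 of the fold change. Calls used p of 0.01 or less, with Benjamini-Hochberg adjustment over all 16475 tested genes. Values per mouse are TMM-scaled CPM or RPKM. Overlap of group ranges was examined for the members and marker lists only, and the share of all tested genes that do not overlap was not counted. Each mouse had 15413385 to 23590149 reads on genes.

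All 10 members are named, with each mouse's value for members called in a pairwise comparison and for the 3 members with the largest genotype average, and other members by range. From each list the called genes are named, at most 4 per comparison by smallest p. The members and lists were chosen with earlier results of these data known. Deviations of same-numbered mice correlated at 0.114 to 0.34 in each of 4 pairs of WT-D and WT-S mice, with the numbers taken from the labels. A fit with the number as a block is given beside the unblocked fit where it changes a call of a member or list gene. The alternatives comprised the likelihood ratio test of DESeq2 1.42.0, also after 3 iterations of the study's DEGES normalization, median-ratio size factors, no filter, at least 10 counts in every mouse, all 16 mice in one fit, a replicate block, the share of reads outside genes as a covariate, the adjusted threshold and each mouse left out. The main fit of each comparison was checked on simulated data holding 200 altered genes. Part of the 3xTg genotype is not reported here.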

Additional observations from a re-analysis of the deposited data

How the results depend on the processing

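At an adjusted p of 0.05 or less the count of members called became 0 in 3xTg-D against WT-D, in 3xTg-S against WT-S, in WT-S against WT-D and in the treatment average. With the share of reads outside genes as a covariate it became 2 in 3xTg-D against WT-D, and without a filter on low counts it became 1 in 3xTg-S against WT-S mice. Leaving out each mouse in turn moved the count between 1 and 2 in 3xTg-S against WT-S and between 0 and 1 in 3xTg-S against 3xTg-D, in WT-S against WT-D and in the interaction. The cause was not tested. Over the 10 members and 8 comparisons, 576 of 580 values under other settings and 867 of 880 with a mouse left out kept their side of the threshold. The sign changed in 22 and 57 of them, of which 0 were called. Outside WT-D and WT-S, not every pair of same-numbered mice correlated over 0.1, and 3 to 7 of 8 mice correlated best with their own number. The mean over same-numbered pairs ran from 0.0414 (WT-D with 3xTg-D) to 0.241 (WT-S with 3xTg-S), with 0.217 for WT-D with WT-S mice. With a replicate block the interaction called 2 members, Fads1 (-0.26) and Fads2 (-0.29), against 3.79% of all genes, and the block changed no other member's call at p of 0.01 or less. Over all genes it moved the count from 98 to 624 in the interaction, from 149 to 1133 in 3xTg-S against 3xTg-D, from 702 to 1339 in 3xTg-S against WT-S and from 145 to 291 in the treatment average. Without the low-count filter these counts were 208, 355, 1077 and 299, and that of WT-S against WT-D was 180 in place of 31. The block also moved the count from 809 to 944 in 3xTg-D against WT-D, from 937 to 1075 in 3xTg-S against WT-D and from 1307 to 1727 in the genotype average. Elovl1 had 124 to 224 reads per mouse, which limits its precision.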
